A study of Homo sapiens with 6 samples.

Results

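CIITA and the MHC class II genes were examined in RPMI8226, an established line of human multiple myeloma cells, after exposure to HAPLN1-PTR1. The set held 10 genes of the 63677 in the deposited table. It was defined by gene names, by a rule that uses no measured value, though with earlier results of these data known, and comprised CIITA, CD74, HLA-DRA, HLA-DRB1, HLA-DPA1, HLA-DPB1, HLA-DQA1, HLA-DQB1, HLA-DMA and HLA-DMB, each on its primary chromosome. HAPLN1-PTR1, a domain of HAPLN1 from the extracellular matrix, was given as a glutathione-S-transferase fusion (GST-PTR1) at 100 nM for 6 hr, and cells given 100 nM GST alone for 6 hr were the control. The cells of both groups carried the same WT genotype label, and each treatment had 3 biological replicates of this 1 line, so the values describe RPMI8226 alone. RNA was read from whole cultures, in which more RNA per cell and more cells making it cannot be told apart.

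MHC class II molecules are pairs of an α and a β chain that present peptides from the endosomal pathway to CD4+ T cells. CIITA is the transactivator on which their transcription depends. It binds no DNA itself but joins RFX, CREB and NF-Y, which sit on conserved X and Y boxes upstream of the class II genes and CD74. Plasma cells, from which myeloma arises, are known for low CIITA because the repressor Blimp-1, the product of PRDM1, silences it.

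Library totals were 15202503, 20077280 and 23453473 counts with GST and, with GST-PTR1, 22874133, 28837431 and 44688737, and libraries are called the shallowest, middle and deepest library of their treatment. A count of 3 equalled 0.0761 to 0.18 CPM, where CPM is the count scaled by the TMM-adjusted library total. The 8 plasma cell markers summed to 3338 to 3740 CPM with GST and 3218 to 4071 CPM with GST-PTR1, and none was at 0. JCHAIN made up most of these sums, with means of 2168 CPM with GST and 2278 CPM with GST-PTR1. JCHAIN and CD38 did not pass the edgeR test (log2 fold changes of 0.07 and 0.16). Among the 8 markers SDC1, TNFRSF17 and XBP1 were lower with GST-PTR1 (log2 fold changes of -1.03, -1.41 and -0.47), while PRDM1, SLAMF7 and IRF4 were higher (1.35, 1.52 and 0.65). The XBP1 call was lost without the deepest GST library (adjusted p = 0.0599) or the middle GST-PTR1 library (adjusted p = 0.0832). The part of these marker shifts in the class II values was not tested. Of B cell markers, CR2 was at 291 ± 24.4 CPM with GST and 257 ± 35.9 CPM with GST-PTR1 (SD, n = 3), while MS4A1 was at 0.648 and 0.727 CPM and PAX5 at 1.27 and 1.60 CPM, and none of these passed the edgeR test. The 6 markers of monocytes, macrophages and dendritic cells, which carry class II in other settings, summed to 0.601 to 1.80 CPM with GST and to 0.329 to 0.762 CPM with GST-PTR1, with CD1C and FCGR3A at 0 in every library. The 3 T cell markers summed to 4.86 to 5.29 and 2.96 to 3.45 CPM, nearly all of it CD8A, with at most 2 counts of CD3D or CD3E, and the 3 stromal markers stayed between 0.240 and 0.521 CPM with COL3A1 at 0.

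All 10 genes of the set were upregulated by GST-PTR1, by 2.13-fold for CD74 to 8.39-fold for CIITA (edgeR quasi-likelihood test, adjusted p under 0.05 over the 16926 genes tested). None was lower, at an unadjusted p under 0.05 either, and none was lower by DESeq2 or limma. Over all genes tested, 20.6% were called, 9.15% higher and 11.4% lower. Every member at least doubled, which 3.68% of genes did with a call, and CIITA, HLA-DRA and HLA-DQA1 passed 4-fold. Scaling to library totals moved the median of all tested genes by -0.20 on the log2 scale, and CD74 was then at 0.90, under a doubling, and HLA-DRA and HLA-DQA1 at 1.83 and 1.84, under 4-fold. These 2 genes were also under 4-fold without the shallowest GST library (1.91 and 1.89) or the deepest GST-PTR1 library (1.85 and 1.86). The treatments did not overlap in any of the 10, with all GST-PTR1 libraries above all GST libraries, which held for 19.2% of all genes tested (40.4% when either direction is counted). The median log2 fold change was 1.81 in the set, 1.77 without CIITA, and 0.01 over all genes tested. For single genes the exact permutation test of 3 libraries against 3 cannot go below p = 0.1, and each member reached that value.

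**Figure D1:**
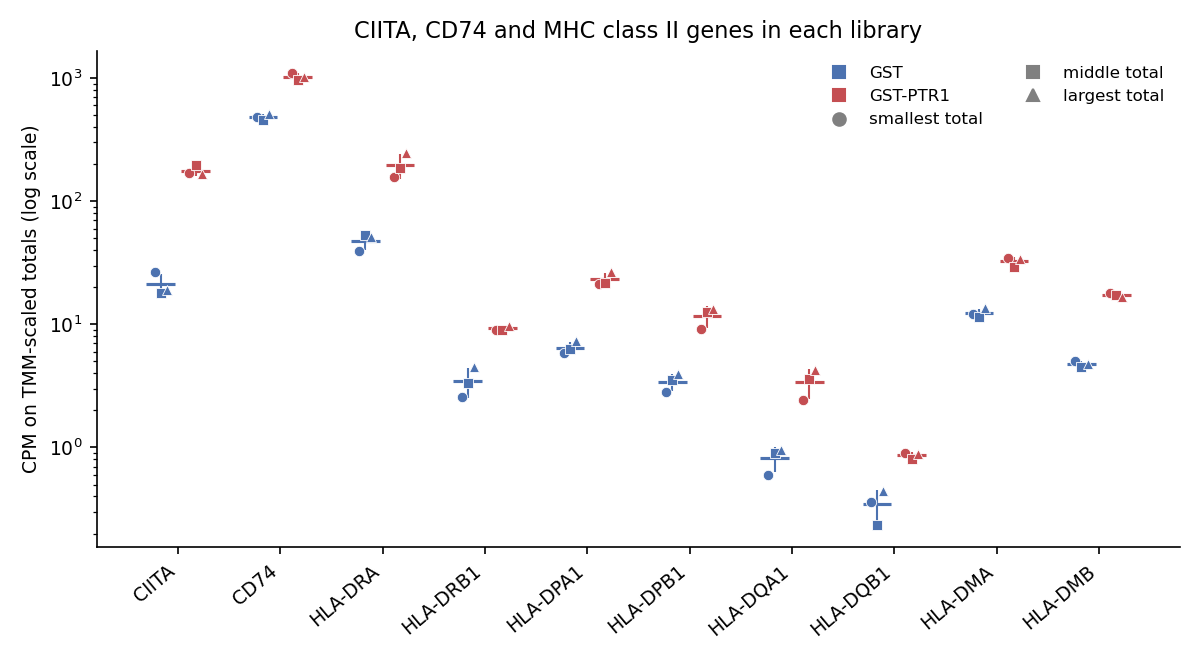
CPM on TMM-scaled totals (log axis) of the 10 genes in each of the 6 libraries. Points are libraries, with shapes for the order of their totals within a treatment, horizontal lines are means and vertical lines SD (n = 3). In every gene the GST-PTR1 points (red) lie above the GST points (blue), with the levels of CD74 at the top and those of HLA-DQB1 at the bottom.

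The DNA upstream of these genes is shown where letters of both boxes were found within the same 100 bases, since the X and Y boxes are what CIITA acts through. RefSeq's promoter table (GRCh38.p14) had entries for 8 of the 10 genes and none for CIITA or HLA-DRA. In each entry the 250 bases upstream of the start site were searched on both strands for ATTGG (the core of the Y box, CCAAT when read on the other strand), AGCAAC (a core of the X1 box) and TGATG (a part of the X2 box), motifs that could share a base at their ends. The following 100-base windows, 5′ to 3′ on the strand of each gene, mark the matches in capitals. They are chr6:32589864-32589963, chr6:32953113-32953212, chr6:32941044-32941143 and chr5:150412926-150413025, all on the minus strand.
HLA-DRB1: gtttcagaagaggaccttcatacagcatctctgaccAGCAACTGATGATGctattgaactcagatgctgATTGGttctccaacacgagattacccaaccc
HLA-DMA: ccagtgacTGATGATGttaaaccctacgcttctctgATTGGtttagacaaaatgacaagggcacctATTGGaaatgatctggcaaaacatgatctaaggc
HLA-DMB: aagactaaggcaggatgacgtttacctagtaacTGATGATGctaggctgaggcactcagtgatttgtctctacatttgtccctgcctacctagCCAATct
CD74: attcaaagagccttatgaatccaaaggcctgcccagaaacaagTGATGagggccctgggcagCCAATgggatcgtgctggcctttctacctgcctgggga

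In HLA-DRB1 the X1 letters began 79 bases upstream of the start site, ran directly into overlapping copies of TGATG, and were followed by ATTGG at 46 bases. In HLA-DMA overlapping copies of TGATG began 107 bases upstream and ATTGG followed at 79 and 49 bases. HLA-DMB and CD74 held TGATG on the gene strand and the Y core only as CCAAT, at 22 and 53 bases. HLA-DPB1, HLA-DQA1 and HLA-DQB1, not printed, held the Y core in the same window but TGATG only outside it, on the other strand. The copy closest to the window lay 179, 159 and 10 bases upstream. The Y core was found upstream of 7 of the 8 genes and of 32.0% of all 35116 promoters, AGCAAC upstream of 3 of the 8 and 10.3% of all, and TGATG upstream of 7 of the 8 and 28.8% of all. The shares over all promoters are by entry. The 8 genes had 9 entries, of which 7 held the Y core and 3 held AGCAAC. An X letter group followed within 40 bases by ATTGG on the gene strand was found in HLA-DRB1 and HLA-DMA and in 0.888% of all promoters. These are matches of letters, not measured binding.

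CIITA (chr16:10971055-11026079, plus strand, GRCh37, the build of the deposited table for all gene positions) had the largest fold change of the set. It had 442, 381 and 475 counts in the GST libraries, given here and throughout from the shallowest to the deepest library, and 3776, 5381 and 6525 counts in the GST-PTR1 libraries. The corresponding CPM were 26.5, 18.0 and 19.0 with GST and 169, 197 and 165 with GST-PTR1, so the lowest GST-PTR1 library was far above the highest GST library. The mean rose from 21.2 ± 4.65 to 177 ± 17.2 CPM (SD, n = 3), a log2 fold change of 3.07 with a standard error of 0.16 (edgeR, adjusted p = 2.47e-07). By size of fold change it ranked 147 of 16926 genes. Of its exonic bases 6.95% overlap genes of the opposite strand, among them DEXI, and counting used strand.

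CD74 (chr5:149781200-149792492), the invariant chain that chaperones new class II dimers and blocks their groove, was the most abundant gene of the set and had its smallest fold change. Its CPM were 487, 454 and 507 with GST and 1094, 971 and 1022 with GST-PTR1, without overlap. The mean went from 483 ± 26.7 to 1029 ± 61.9 CPM (log2 fold change 1.09, standard error 0.11, edgeR adjusted p = 5.07e-05).

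HLA-DRA (chr6:32407619-32412823) encodes the near-invariant α chain of HLA-DR. Its CPM were 39.2, 53.2 and 51.4 with GST and 157, 186 and 245 with GST-PTR1. The GST-PTR1 libraries differed among themselves more than for CIITA, in which the library highest for HLA-DRA was the lowest. The mean rose from 47.9 ± 7.62 to 196 ± 44.4 CPM (log2 fold change 2.03, standard error 0.17, edgeR adjusted p = 1.24e-05). HLA-DRB1 (chr6:32546546-32557625), the polymorphic β chain that pairs with it, had 43, 71 and 112 counts with GST and 202, 248 and 386 with GST-PTR1. Its mean rose from 3.48 ± 0.959 to 9.31 ± 0.414 CPM (log2 fold change 1.40, standard error 0.19, adjusted p = 0.00051).

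The DR chains were counted very unequally. HLA-DRA had 11.5 to 15.8 counts for each count of HLA-DRB1 with GST and 17.4 to 25.0 with GST-PTR1. Adding the paralogs HLA-DRB5 and HLA-DRB6 to the β side brought this to 8.28 to 10.8 and 11.4 to 15.9. Reads that map to several places were left out of the deposited counts, and HLA-DRB genes are near-identical copies that differ between alleles, so the β chain counts are uncertain and their part in this ratio was not tested.

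HLA-DPA1 (chr6:33032346-33048552) and HLA-DPB1 (chr6:33043703-33054978) encode the α and β chains of HLA-DP and overlap on opposite strands. HLA-DPA1 had 5.82, 6.25 and 7.29 CPM with GST and 21.3, 21.5 and 26.7 CPM with GST-PTR1. HLA-DPB1 had 2.82, 3.50 and 3.93 CPM with GST and 9.10, 12.7 and 13.4 CPM with GST-PTR1. In both genes the treatments were well apart, and the log2 fold changes were 1.84 and 1.77 (standard errors 0.15 and 0.19, edgeR adjusted p = 7.56e-06 and 9.21e-05).

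HLA-DQA1 (chr6:32595956-32614839) and HLA-DQB1 (chr6:32627244-32636160), the chains of HLA-DQ, were the least abundant of the set by counts. Reads that map to several places were left out here too, and their part in these levels was not tested. HLA-DQA1 had 10, 19 and 24 counts with GST and 54, 98 and 169 with GST-PTR1, and its log2 fold change was 2.05 (standard error 0.29, edgeR adjusted p = 0.000543). HLA-DQB1 had 6, 5 and 11 counts with GST and 20, 22 and 35 with GST-PTR1, and its mean went from 0.346 ± 0.103 to 0.863 ± 0.0504 CPM (log2 fold change 1.29, standard error 0.32, adjusted p = 0.0173). HLA-DQB1 entered the test through its GST-PTR1 libraries, and it was the 1 member whose call rested on single libraries. Without the middle GST library its log2 fold change was 1.08 (adjusted p = 0.0618), and without the deepest GST-PTR1 library it was 1.28 (adjusted p = 0.0537). Its range over the 13 alternatives in which it was tested was 1.08 to 1.55 (adjusted p = 0.0085 to 0.0618).

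HLA-DMA (chr6:32916390-32936871) and HLA-DMB (chr6:32902406-32908847) encode HLA-DM, which edits peptides by releasing the CLIP fragment of CD74 from class II. HLA-DMA had 12.1, 11.4 and 13.5 CPM with GST and 34.3, 29.0 and 34.2 CPM with GST-PTR1 (log2 fold change 1.40, standard error 0.13, edgeR adjusted p = 1.88e-05). HLA-DMB had 5.04, 4.50 and 4.73 CPM with GST and 18.0, 17.5 and 16.6 CPM with GST-PTR1 (log2 fold change 1.87, standard error 0.13, adjusted p = 2.49e-06). Replicates were close together in both genes, and closest in HLA-DMB. The annotation gives 6.87% of HLA-DMA exonic bases and 11.5% of HLA-DMB exonic bases to other same-strand genes as well, and reads there were left uncounted.

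**Figure D2:**
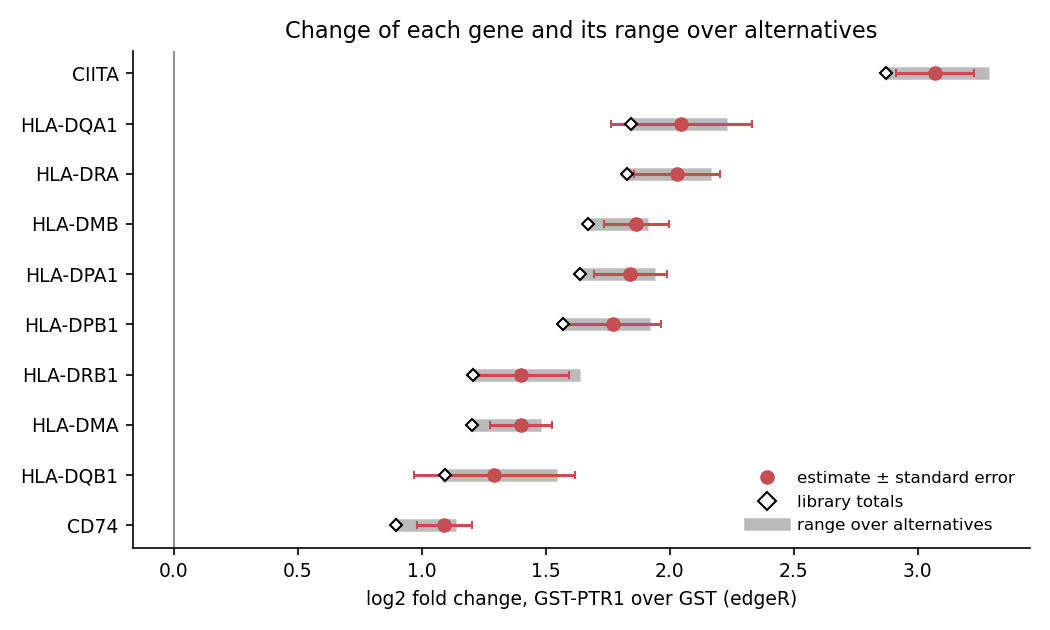
Log2 fold change (GST-PTR1 over GST) of each gene with its standard error (red), the value on library totals without TMM factors (open diamonds), and the range over all alternative analyses (grey bars). All 10 grey bars lie above 0, and CIITA lies apart from the other 9 genes at 3.07.

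Per exon length (RPKM on library totals), CD74 was the highest in both treatments, at 162 ± 10.7 with GST and 302 ± 28.3 with GST-PTR1 (n = 3), followed by HLA-DRA at 40.01 ± 5.61 and 142 ± 24.7. With GST the order then ran through HLA-DMA (5.20 RPKM), HLA-DRB1 (3.02), CIITA (1.89), HLA-DPB1 (1.28), HLA-DPA1 (1.20), HLA-DMB (1.09), HLA-DQA1 (0.126) and HLA-DQB1 (0.0756). With GST-PTR1 the order was the same apart from CIITA, which went from rank 5 to rank 3 at 13.8 ± 1.69 RPKM, next to HLA-DMA at 11.99 ± 1.17, with overlapping libraries. With GST, CIITA and HLA-DRB1 overlapped as well (1.58 to 2.42 and 2.30 to 3.89 RPKM), so neither rank of CIITA is resolved. HLA-DPB1, HLA-DPA1 and HLA-DMB overlapped in both treatments, between 1.02 and 1.46 RPKM with GST and between 3.10 and 4.19 with GST-PTR1, so their order is not resolved. Exon lengths cover all isoforms of a gene, 12036 bases for CIITA against 1280 for HLA-DRA, which lowers the RPKM of a gene with many isoforms.

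Ratios between members within a library need no library scaling, and 12 were compared. CD74 over HLA-DRA was a log2 ratio of 3.34 ± 0.27 with GST and 2.41 ± 0.37 with GST-PTR1, without overlap (difference -0.93). HLA-DRB1 over HLA-DRA went from -3.80 ± 0.25 to -4.37 ± 0.26 (difference -0.57), and HLA-DMA over HLA-DMB from 1.37 ± 0.13 to 0.90 ± 0.16 (difference -0.46), both without overlap. These 3 ratios were lower with GST-PTR1 in every library, with the smallest p the design allows (exact two-sided permutation test, p = 0.1, 0.267 after adjustment over the 12 ratios), so none passed the threshold. The other 9 overlapped. Ratios with low counts depended on the constant of 0.5 added to each count, which weighs more in a library with fewer reads. Library totals differed between the treatments, and the part of depth in ratios with low counts was not tested. With 5 added, 6 of the 12 ratios were without overlap, the further 3 being HLA-DPB1, HLA-DQA1 and HLA-DQB1 over HLA-DRA (differences of -0.32, -0.28 and -1.19, each exact permutation p = 0.1), against -0.26, -0.0035 and -0.73 with 0.5 added. HLA-DPA1 over HLA-DPB1 differed by 0.07 (exact permutation p = 0.7), or 0.11 with 5 added. CIITA over HLA-DRA differed by 1.06 (exact permutation p = 0.2), and it was the same to 2 decimals, at -0.56, in the shallowest GST and the deepest GST-PTR1 library.

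**Figure D3:**
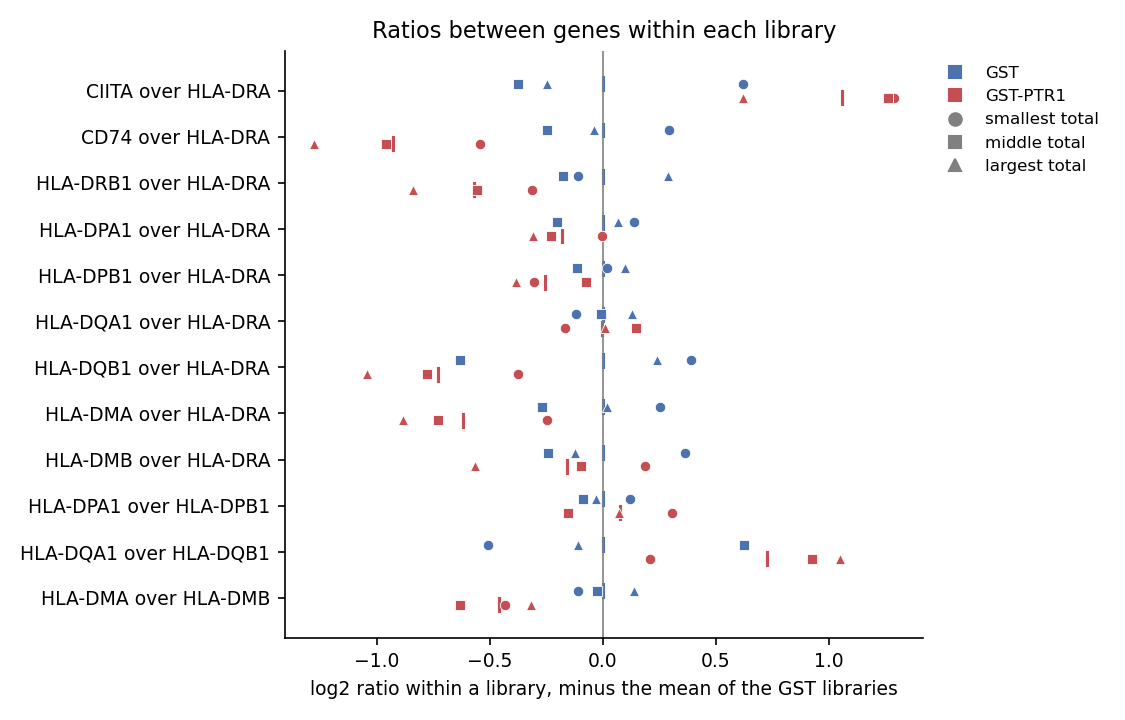
Log2 ratios between pairs of members within each library, with the mean of the GST libraries subtracted (n = 3 per treatment, vertical ticks are means). CD74 over HLA-DRA, HLA-DRB1 over HLA-DRA and HLA-DMA over HLA-DMB are the 3 rows in which red and blue points do not overlap.

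Of the 11 other class II genes, 6 were tested and 5 were upregulated, with a median log2 fold change of 2.03. Over all genes tested, 9.15% were higher. The 5 were HLA-DOA (2.34), HLA-DQA2 (2.34), HLA-DRB5 (1.73) and the pseudogenes HLA-DPB2 (2.45) and HLA-DRB6 (1.44), all at low counts, such as 6, 6 and 7 against 34, 46 and 58 for HLA-DOA. HLA-DOA, HLA-DQA2 and HLA-DPB2 had 10 or fewer counts in each GST library and entered the test through their GST-PTR1 libraries. The uncertainty given above for HLA-DRB counts holds for HLA-DRB5 and HLA-DRB6. How far reads of related class II genes were assigned to each other was not tested. Where at least 10 counts in every library were required, 2 of the 11 were tested and 1 was called, with a median of 0.95. HLA-DOA and HLA-DOB encode HLA-DO, which restrains HLA-DM. HLA-DOB, with 44, 54 and 72 counts with GST and 75, 82 and 110 with GST-PTR1, had a log2 fold change of 0.17 (standard error 0.18, edgeR adjusted p = 0.543), and the sign turned to -0.03 with library totals. HLA-DOB shares 32.2% of its exonic bases with another same-strand gene. HLA-DQB2 was too low to test, and HLA-DRB9, HLA-DQB3, HLA-DPA2 and HLA-DPA3 had 0 counts.

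Along chromosome 6 from HLA-DRA to HLA-DPB1 the table lists 28 genes that are not in the set, of which 11 were tested and 9 were higher (median log2 fold change 0.63). Among all genes tested, 9.15% were higher. Apart from PSMB8-AS1, the 9 genes are also counted with the other class II genes above or the class I pathway below. Within this interval the class I genes TAP2, PSMB8, PSMB9 and TAP1 lie between class II genes. TAP1, a subunit of the peptide transporter, rose by a log2 fold change of 1.11 (standard error 0.12, edgeR adjusted p = 0.000112), and TAP2 by 0.45 (0.11, adjusted p = 0.0138). The TAP2 call was lost without the shallowest or the middle GST-PTR1 library (adjusted p = 0.0538 and 0.0502). All 8 class II members on the chromosome had larger values than these, at 1.29 or more, and that difference was not tested. BRD2, which codes for a chromatin reader, was at 0.34 and did not pass the test (adjusted p = 0.0598), but did so without the shallowest GST or the deepest GST-PTR1 library (adjusted p = 0.0207 and 0.0374).

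**Figure D4:**
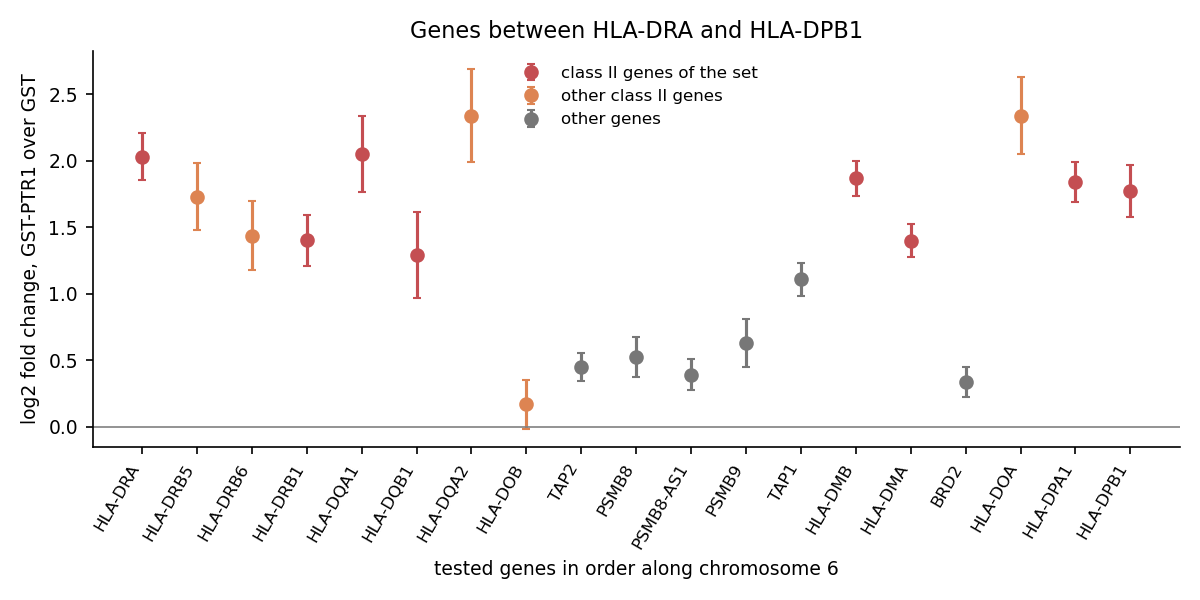
Log2 fold change with its standard error of every tested gene from HLA-DRA to HLA-DPB1, in order along chromosome 6 and not to distance. Class II genes of the set (red) and other class II genes (orange) lie at 1.29 or above except HLA-DOB at 0.17, and the genes between them (grey) lie from 0.34 to 1.11.

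Of the 12 genes of the enhanceosome and its coactivators, all were tested, 2 rose and 2 fell (median -0.07). Over all genes tested, 9.15% were higher and 11.4% lower, and with 12 genes the counts of this list were close to these shares. RFX5, the DNA-binding subunit of RFX, rose from 150 ± 7.01 to 236 ± 11.01 CPM (log2 fold change 0.65, edgeR adjusted p = 0.000915), and CREB1, a factor of the X2 box, from 35.9 ± 4.47 to 62.4 ± 2.95 CPM (0.80, adjusted p = 0.000679). RFXAP, another RFX subunit, fell by 0.61 (adjusted p = 0.0468), and KAT2B, a histone acetyltransferase, fell by 0.47 (adjusted p = 0.0101). The RFXAP call was lost without the middle or the deepest library of either treatment, which left 1 of the 12 lower.

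Among the 17 genes known to act on CIITA or its promoters, 15 were tested, 9 rose and 1 fell, with a median log2 fold change of 0.71. The shares over all genes tested were 9.15% higher and 11.4% lower. IRF1, which binds the interferon-responsive CIITA promoter, rose from 77.3 ± 5.45 to 257 ± 9.30 CPM (log2 fold change 1.73, edgeR adjusted p = 6.98e-07), and IRF2, which binds the same element, rose by 0.95. IRF8, a lymphoid and myeloid interferon regulatory factor, rose by 1.67 (adjusted p = 1.63e-06). The receptor subunit IFNGR2 rose by 1.17 (adjusted p = 3.14e-05). IFNG itself had 0 counts in all 6 libraries, a limit of 0.18 CPM in the shallowest. SOCS1, an inhibitor of JAK signaling, rose from 1.65 ± 0.642 to 18.5 ± 2.85 CPM (log2 fold change 3.47, adjusted p = 2.7e-06). PRDM1, the CIITA repressor named above, rose from 59.3 ± 7.43 to 151 ± 11.9 CPM (1.35, adjusted p = 1.56e-05), so repressor and CIITA mRNA were higher in the same libraries. The gene that fell was SPI1, a myeloid and B cell factor, by 0.58 (adjusted p = 0.0107), a call not made without the middle GST-PTR1 library. EBF1 had 0 counts throughout.

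Of the 13 genes of endosomal processing, 10 were tested and 4 rose (median 0.21), where 9.15% of all genes tested rose. CTSS, the cathepsin that cleaves the last part of CD74 from class II, went from 132 ± 17.2 to 217 ± 31.3 CPM (log2 fold change 0.72, edgeR adjusted p = 0.00362). The thiol reductase IFI30 rose by 1.07 (adjusted p = 0.0117), the dipeptidyl peptidase CTSC by 0.52 (adjusted p = 0.0306) and SPPL2A, a protease for the membrane stub of CD74, by 0.47 (adjusted p = 0.0259). IFI30 was low, with 14, 14 and 20 counts with GST and 32, 49 and 63 with GST-PTR1. It shares 40.2% of its exonic bases with another same-strand gene, and reads there were left uncounted. The number called was 1 without the middle GST-PTR1 library and 2 without the shallowest or deepest GST or the deepest GST-PTR1 library. With library totals 2 were higher and 3 lower, and over all 16926 genes tested 927 were then higher and 3788 lower. CTSL and CTSE had at most 1 count.

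Of the 8 genes for turnover and tetraspanin partners, 7 were tested, 2 rose and 1 fell (median 0.05). Among all genes tested, 9.15% rose and 11.4% fell. CD83, which opposes the ubiquitin-driven loss of class II from the surface, rose from 32.5 ± 2.05 to 382 ± 49.3 CPM (log2 fold change 3.56, edgeR adjusted p = 2.29e-08), more than CIITA on this scale. CD82, a tetraspanin of the class II compartment, rose by 1.23 (adjusted p = 2.69e-05). MARCHF8, a ligase that ubiquitinates class II, fell by 0.79 (adjusted p = 0.0171), a call lost without the deepest GST-PTR1 library, and its relative MARCHF1 had at most 1 count. Of 5 other genes known as CIITA-regulated, RAB4B (0.66) and TRIM26 (0.46) were called higher (median 0.33). This number was 0 with library totals or without either middle library, and 1 without the deepest GST or the shallowest or deepest GST-PTR1 library. It was 3 with DESeq2 size factors, with the DESeq2 test or without the shallowest GST library. It was 4 where 1 count in any library was enough and in both fits of 4 libraries described at the end.

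The 13 genes of the class I pathway, which presents cytosolic peptides to CD8+ T cells, had a median log2 fold change of 0.49, and 11 were called higher. Among all genes tested, 9.15% were called higher. Apart from TAP1, the called genes ranged from HLA-E (0.67, edgeR adjusted p = 0.00127) and the class I transactivator NLRC5 (0.65, adjusted p = 0.00501) down to HLA-C (0.43, adjusted p = 0.0319). B2M and TAPBP did not pass the test, and TAPBP did without the deepest GST-PTR1 library (adjusted p = 0.024). The number called was 12 with the DESeq2 test or limma, and 13 where 1 count in any library was enough. It was 3 with library totals and 5 without the middle GST or the shallowest GST-PTR1 library. It was 6 without the shallowest GST library and 7 without the deepest GST-PTR1 library. All 13 log2 fold changes were above 0 in each of these analyses. In the same analyses 9 or 10 genes of the class II set were called.

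**Figure D5:**
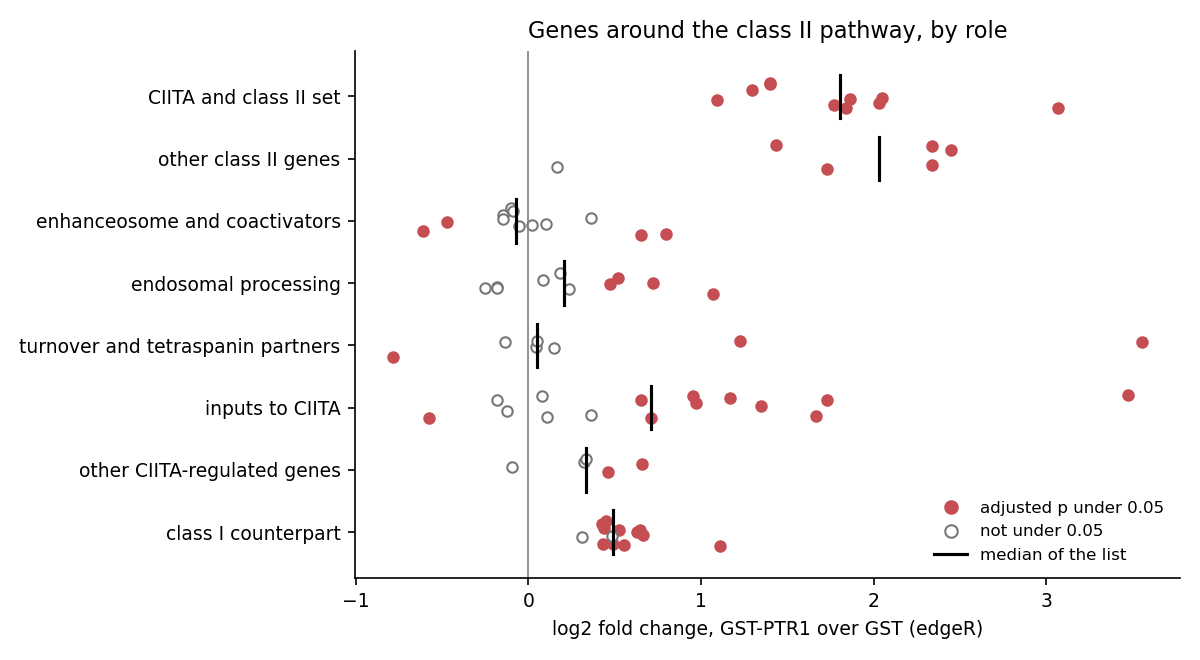
Log2 fold change (GST-PTR1 over GST) of tested genes by role, with filled points for an edgeR adjusted p under 0.05 and a black line at the median of each list; points are spread vertically only for legibility. The medians of the CIITA and class II set and of the other class II genes are 1.81 and 2.03, against 0.49 for class I and -0.07 for the enhanceosome. Several of the other class II genes entered the test through their GST-PTR1 libraries. Their median was 0.95 where at least 10 counts in every library were required.

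Within 500000 bases of CIITA the table lists 44 genes, of which 15 were tested, 6 were higher and 1 was lower (median 0.58). The shares over all genes tested were 9.15% higher and 11.4% lower. SOCS1, 322 kb away, rose as given above. TVP23A, 58.4 kb before CIITA, had 0, 3 and 6 counts with GST and 35, 47 and 59 with GST-PTR1 (log2 fold change 3.44, standard error 0.46, edgeR adjusted p = 0.000382). TVP23A entered the test through its GST-PTR1 libraries. NUBP1, 108 kb before CIITA, rose by 0.79 (adjusted p = 0.00065), and RMI2 fell by 0.59 (adjusted p = 0.00367). After CIITA, ENSG00000263013 at 6.66 kb rose by 1.06 (adjusted p = 0.00168), ENSG00000262222 at 8.50 kb by 1.60 (adjusted p = 0.00311) and the pseudogene HNRNPCP4 at 310 kb by 0.61 (adjusted p = 0.00328). DEXI, which overlaps CIITA on the opposite strand, was near the threshold with a log2 fold change of -0.44 (adjusted p = 0.0513), and was called lower without the middle GST or the shallowest GST-PTR1 library (adjusted p = 0.0288 and 0.0423). CLEC16A, 12.3 kb after CIITA, had a log2 fold change of 0.10 (adjusted p = 0.666), whose sign turned with library totals.

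Across the 6 libraries, the log2 CPM of PIM1, FMNL3, DDR1, BMF and STAT3 followed that of CIITA most closely among 13359 genes with a mean count of at least 50 (Pearson's r from 0.998 to 1.000). PIM1, a survival kinase, went from 61.6 ± 8.20 to 290 ± 12.2 CPM. Of the class II set HLA-DMB was closest, at r = 0.996 and rank 37, then CD74 at 0.984, and HLA-DRB1 was lowest at 0.918, with HLA-DQB1 too low in counts to enter. These values are a description over 6 points that fall into the 2 treatments, and 8.16% of all genes had an r over 0.9.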

How the data were processed

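RNA of RPMI8226 cells given GST or GST-PTR1 was sequenced in 3 libraries per treatment. The deposited values are raw read counts by gene. Per the file header the authors used featureCounts 1.5.0-p1 with Ensembl release 75 genes (GRCh37), counted by strand, and left out multi-mapping reads and reads in exons of several genes of 1 strand. The aligner is not given in the sources used here. No column of per-sample values was left unused. The column names gave each library its treatment. Gene symbols were matched by identifier for 52181 of 63677 genes.

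For the tests, edgeR 4.0.16 in R 4.3.3 was applied to the counts (TMM factors, filterByExpr, glmQLFit and glmQLFTest, Benjamini-Hochberg adjustment over 16926 genes). Standard errors were taken from the F statistic and the fold change. RPKM used the deposited exon lengths. Ratios had 0.5 added to each count. Alternatives used DESeq2 1.42.0, limma 3.58.1 and edgeR's test against a 1.5-fold change. The edgeR step was tested on simulated data. No pair of libraries of 1 treatment agreed within sampling noise (smallest chi-square per gene 7.66). Counts of 3 or fewer were taken as the limit of detection, which covers counting error only. Ratios, lists and plots used Python 3.11.15 with pandas 2.3.3 and matplotlib 3.10.9.

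The members and lists were chosen with earlier results of these data known, and the lists were written from general knowledge. Named were all members, up to 6 called genes of each list by adjusted p, list genes at or near 0 counts, and the 5 genes closest to CIITA by Pearson's r. SPI1, RMI2, HLA-DOB, B2M, TAPBP, HLA-C, BRD2, DEXI, CLEC16A and the cell type markers given with values were named in addition after their values were seen. A marker on the B cell list is not reported here.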

Additional observations from a re-analysis of the deposited data

How the results depend on the processing

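Of 139 alternative fits of single members, 137 left the direction and the call as they were. The other 2 were HLA-DQB1 with 1 library left out, where its log2 fold change ranged from 1.08 to 1.55 and its adjusted p from 0.034 to 0.0618; at least 10 counts in every library left it untested. The number of members called higher was 10, and 9 to 10 over the alternatives, with 9 against a 1.5-fold change, where HLA-DQB1 is not called. Library totals in place of TMM factors moved the median of all genes tested by -0.20 and the calls from 1549 higher and 1937 lower to 927 and 3788. The median of the members was then 1.61, which is 1.80 above that of all genes, as with TMM factors. Over the 7 pathway lists, 35 of 68 tested genes were higher and 4 lower, where 9.15% and 11.4% of all genes tested were. The numbers over the lists were 22 and 7 with library totals, and 27 to 30 and 2 to 4 with 1 library left out. The number of ratios without overlap was 3 with 0.5 and 6 with 5 added to each count. Of 84 alternative values of the ratios, 5 changed sign, all with 1 library left out: HLA-DQA1 over HLA-DRA (-0.079 to 0.079, and -0.278 with 5 added to each count), HLA-DMB over HLA-DRA (-0.334 to 0.0444) and HLA-DPA1 over HLA-DPB1 (-0.0409 to 0.189). Among 45 named genes outside the set, 3 of 625 alternative values changed sign, HLA-DOB (-0.0256) and CLEC16A (-0.0887) with library totals and CLEC16A (-0.00896) without the middle GST library, where it ranged to 0.272 with others left out. Of the rest 45 lost a call and 14 gained one. Replicate numbers of the samples could not be matched to the table's columns, so a block over all 6 libraries was not run. For 4 libraries, a number in the column names recurs across treatments. There the fit with that number as a replicate block called 10 members higher and 31 list genes higher, and the fit without the block 10 and 33. HLA-DQB1 then had a log2 fold change of 1.29 in both, and class I calls were 4 and 6, and MARCHF8 was called in neither. The counts of HLA-DQA1 and HLA-DQB1 limit their precision.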
